A study of Gossypium hirsutum with 24 samples.

Results

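CBW-damaged cotton leaves were compared after 48 h and after 24 h of feeding by cotton bollworm (CBW; Helicoverpa armigera) larvae, a comparison that asks what a further day of feeding changed at the same hour of the day. The comparison used 6 of the 24 arrays of the series, 3 arrays of each time, and the 14071 probe sets that carried values at both times, of 15615 with values at any time. Gossypium hirsutum cv. CCRI12 plants were grown in a chamber, larvae in the third instar were enclosed in bags with a group of 3 plants, and the whole leaves of the 3 plants were pooled for each array of an Affymetrix cotton GeneChip. Plants of each time were kept apart, so the 24 h and 48 h arrays came from different plants, and the labels and the methods of the study give different numbers of larvae per group of plants. Undamaged plants kept under the same conditions and harvested at 24 h and 48 h, with 3 arrays of each time, gave the change that took place without larvae, and undamaged and CBW-damaged leaves of 6 h and 12 h completed the 24 arrays of 8 groups.

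Leaf-chewing larvae induce defense in layers: phytohormones of the wound response, chiefly jasmonic acid (JA) and ethylene (ET), act through transcription factors such as the ERF (ethylene response factor), WRKY, MYB and NAC families, and these in turn adjust the pathways that make phenolic compounds, flavonoids and terpenoids. The flavonoid pathway branches from phenylpropanoid metabolism and supplies flavonols, anthocyanins and the condensed tannins for which cotton leaves are known. Cell wall proteins such as proline-rich proteins, expansins and dirigent-like proteins form or remodel the wall around damaged tissue.

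The values were MAS5 intensities, the brightness of a probe set scaled within each array, and differences are given as log2 of the 48 h over the 24 h intensity with the standard error (SE) of the fit. A probe set was called where limma's adjusted p was at or under 0.05. Genes are given by the Gossypium raimondii gene model (Gorai) that the study assigned to a probe set, by the locus symbol of the platform annotation (LOC) or by name, and several probe sets can stand for 1 gene. CBW-damaged leaves of 24 h had median array intensities between 366 and 375, and those of 48 h between 388 and 396. Replicates of the CBW 48 h group correlated at 0.985 to 0.995 over the log2 values and those of the CBW 24 h group at 0.974 to 0.991, where replicate 1 stood somewhat apart from the other pair. Control 48 h replicate 2 stood further apart, at 0.941 with both other arrays of its group. The platform annotation gives locus symbols only, so the leaf origin of the RNA could not be checked here with photosynthesis genes, of which 1 was named in the sources used here, and no circadian clock gene was named.

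Few probe sets were called between 24 h and 48 h in CBW-damaged leaves with the spread shared by all 24 arrays. Of the 14071 probe sets, 117 (0.831%) were up-regulated and 123 (0.874%) down-regulated from 24 h to 48 h in CBW-damaged leaves, together 1.71% of those tested. Changes of at least 2-fold were called for 37 (0.263%) and 51 (0.362%) probe sets, and of at least 4-fold for 5 (0.0355%) and 7 (0.0497%). For comparison, CBW-damaged leaves differed from undamaged leaves in 49.3% of 14570 probe sets at 24 h and in 44.9% of 14402 at 48 h under the same rule, and undamaged leaves changed between 24 h and 48 h in 52 probe sets (0.37%), of which 28 (0.199%) went up and 24 (0.171%) down. A difference at an unadjusted p under 0.05 was found for 2606 probe sets (18.5%) in CBW-damaged leaves and for 2216 (15.7%) in undamaged leaves.

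The count differed with the arrays in the fit, and the main fit shared 1 estimate of spread over all 24 arrays. The median SD of log2 intensity between replicates was 0.11 in the CBW 48 h group and 0.15 in the CBW 24 h group. It was 0.20 in the CBW 6 h group, 0.15 in the CBW 12 h group and 0.18 to 0.22 in the 4 undamaged groups. With only the 6 CBW arrays in the fit, 1102 probe sets (7.83%) were called higher and 725 (5.15%) lower, together 13%, among them 235 of the 240 called with all arrays. Without CBW 48 h replicate 2 the count with the shared spread fell to 29. It fell to 46 without replicate 3 and to 128 without replicate 1 of 48 h, to 91 and 94 without replicates 2 and 3 of 24 h, and to 187 without replicate 1 of 24 h. After quantile normalization 24.6% of the called probe sets were higher, against 48.8% with the values as deposited.

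**Figure D1:**
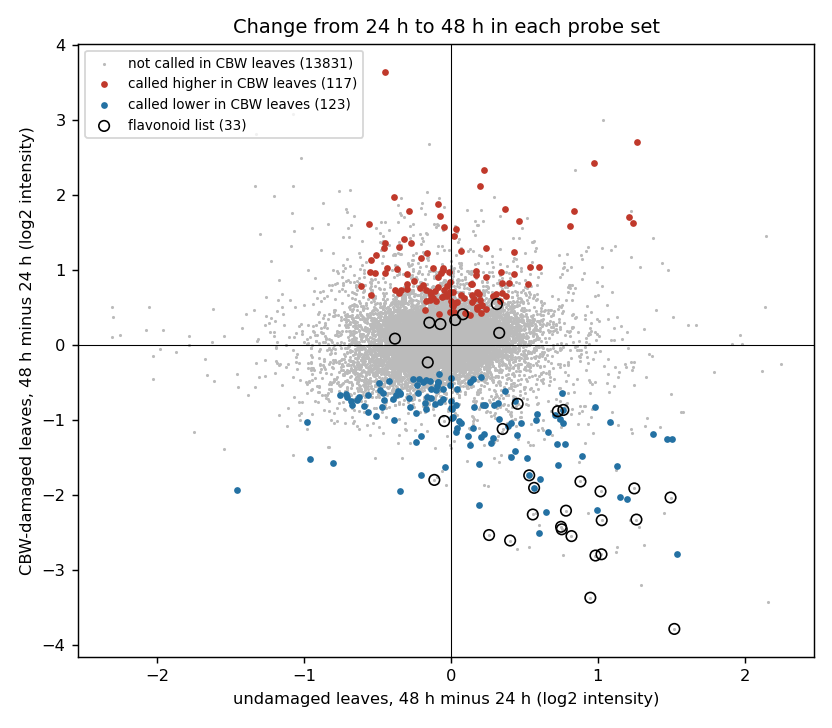
Each point is 1 of 14071 probe sets, placed by its log2 difference between 48 h and 24 h in undamaged leaves (horizontal) and in CBW-damaged leaves (vertical); red and blue points were called higher (117) and lower (123) in CBW-damaged leaves, and open circles mark the 33 probe sets of the flavonoid list. Most flavonoid probe sets lie at the lower right, lower at 48 h in CBW-damaged leaves and higher at 48 h in undamaged leaves.

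The step from 24 h to 48 h in CBW-damaged leaves was set beside that of undamaged leaves, as in the plot of both steps. Of the 117 up-regulated probe sets, 58 had a higher and 59 a lower value at 48 h than at 24 h in undamaged leaves, with a median log2 difference of -0.003. Of the 123 down-regulated probe sets, 66 were higher and 57 lower in undamaged leaves, and 9 were called in the opposite and 1 in the same direction there. The difference between both steps was itself tested as an interaction. It was called for 105 probe sets (0.746%), 0.384% with a higher and 0.362% with a lower step in damaged leaves. The steps of damaged and undamaged leaves had opposite signs in 103 of the 105, which selection for a large difference favours. Both steps were called in only 9 of them. Only 27 of the 117 up-regulated and 37 of the 123 down-regulated probe sets were among the 105, so for the others the step was not shown to differ from that of undamaged leaves. In 107 of the 118 down-regulated probe sets with values at all times the CBW mean of 48 h was the lowest of the 4 times, and in 91 of the 106 up-regulated ones it was the highest. These counts share the 48 h arrays with the call and describe the called probe sets only.

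Of all lists tested, the flavonoid list of the study had the lowest median. Its 33 probe sets of 21 gene models had a median log2 difference of -1.91, a 3.75-fold lower intensity at 48 h, against 0.06 over all probe sets tested, and 26 of them were lower at 48 h. All 3 arrays of 48 h lay below all 3 of 24 h in 24 of the 33, a pattern found in 14.1% of all probe sets, and 14 of the 33 were at least 4-fold lower, whereas only 35 of all 14071 (0.249%) were. In undamaged leaves the same list was higher at 48 h in 27 of 33 probe sets, with a median of 0.57. The study drew this list from probe sets that responded to CBW on these same arrays, so its direction at 48 h is not independent evidence.

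Of the 33, 3 were called lower and none higher, beside 0.874% and 0.831% of all tested. All 3 were probe sets of Gorai.010G008900.1. One of them had intensities of 6651, 4477 and 4765 at 24 h and 2089, 1066 and 1713 at 48 h in CBW-damaged leaves. Its level did not overlap between the days and was 3.34-fold lower at 48 h (log2 -1.74, SE 0.32, adjusted p = 0.00913). Undamaged leaves had 2547, 2429 and 5338 at 24 h and 5227, 4109 and 4658 at 48 h, where the days overlapped. The other probe sets of the gene fell by 1.91 (adjusted p = 0.00877) and 0.87 (adjusted p = 0.0361) on the log2 scale, and the step differed from that of undamaged leaves for all 3.

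The 14 flavonoid probe sets with at least 4-fold lower intensities came from 9 other gene models and did not pass the test (adjusted p = 0.0526 to 0.193), and their levels varied widely between replicates. The most extreme was a probe set of Gorai.005G035100.1, named here after its values were seen, with 2741, 794 and 897 at 24 h and 219, 26 and 131 at 48 h. Its log2 difference was -3.79 (SE 1.08, adjusted p = 0.0719). Undamaged leaves had 418, 299.6 and 2057 at 24 h and 2569, 1306 and 1814 at 48 h, so that 1 of the 3 arrays of 24 h was at the level of 48 h. A probe set of Gorai.008G062900.1, chosen in the same way, had 1655, 597 and 749.8 at 24 h and 192, 31.1 and 112 at 48 h.

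The same arrays stood out in all 14: CBW 24 h replicate 1 was the highest of its group, CBW 48 h replicate 2 the lowest of its group, and control 24 h replicate 3 the highest of its group. Leaving out CBW 24 h replicate 1 moved the median of the list to -1.44, and leaving out CBW 48 h replicate 2 moved it to -1.65, and 9 and 6 of the 14 then stayed at least 4-fold lower. With only the 6 CBW arrays in the fit, 13 of the 14 and 21 of all 33 were called lower and 1 higher, against 5.15% lower and 7.83% higher over all probe sets. The 1 called higher, at 0.41, was a probe set of Gorai.009G200600.1. Other probe sets of this gene model were among the 14, at -2.26 and -2.21, so its probe sets did not share a direction. In all 14 the CBW mean was highest at 6 h and lowest at 48 h. The low place of 48 h was favoured by the choice of the 14, which used the same 48 h arrays.

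**Figure D2:**
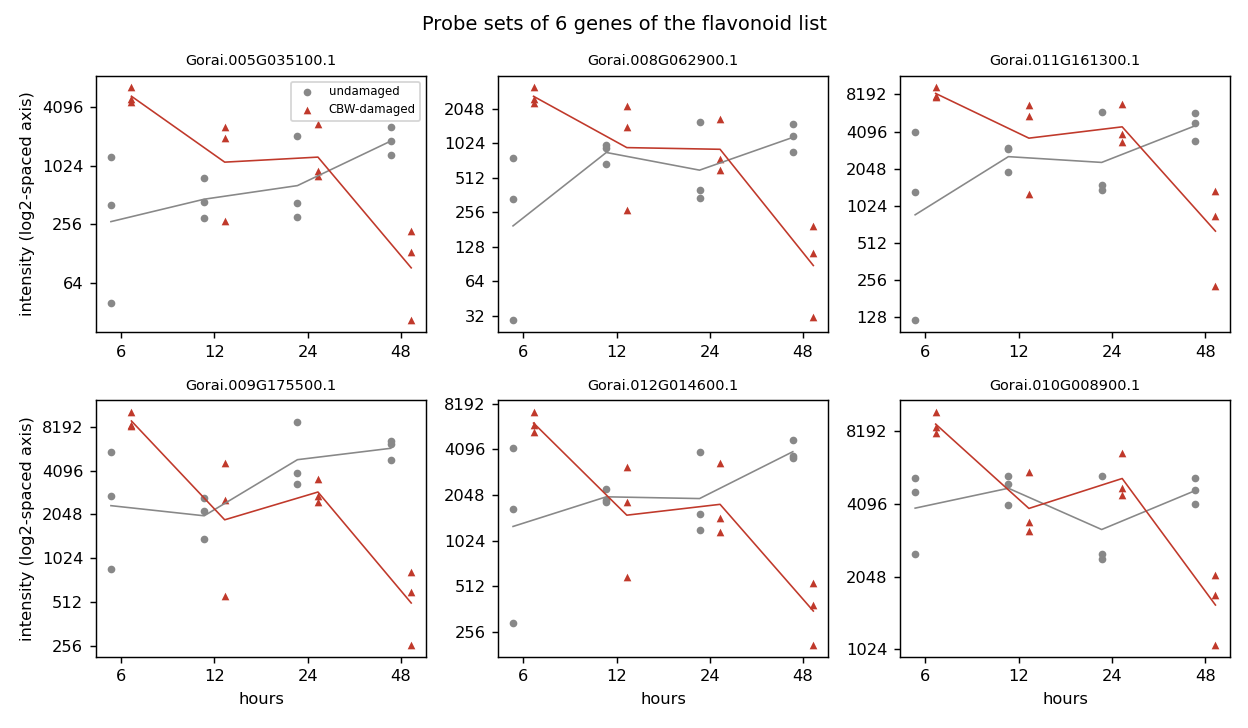
Intensity (log2-spaced axis) of probe sets of 6 flavonoid genes at 6, 12, 24 and 48 h, with 1 point per array (3 per group) and lines through the geometric means; grey circles are undamaged and red triangles CBW-damaged leaves. In each panel the 3 CBW-damaged arrays of 48 h lie below the 3 of 24 h.

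Upstream of flavonoids, the phenylpropanoid list had 3 of 44 probe sets called lower and none higher, with a median of -0.17. Gorai.004G105500.1 had 1729, 853 and 1034 at 24 h and 258, 151 and 210.2 at 48 h and fell by 2.51 (SE 0.63, adjusted p = 0.0497). Both other calls were probe sets of Gorai.009G192400.1, with log2 differences of -1.31 and -0.92. The former lay among the dimmest values of its arrays, and its direction was lost when intensities under the 20th percentile of each array were raised to it. Among 52 terpenoid probe sets, the pathway of gossypol and of leaf volatiles, 2 were called lower and none higher, with a median of -0.11. Gorai.009G184900.1 was the larger of these, with 1068, 381 and 516 at 24 h and 168, 142 and 152 at 48 h (log2 -1.95, adjusted p = 0.0138), and Gorai.010G134700.1 fell by 0.49. Over all 3 pathways, 8 of 129 probe sets were down-regulated and none was up-regulated, beside 0.874% and 0.831% of all tested.

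The firmest decreases belonged to ERF transcription factors, which bind the promoters of ET- and JA-responsive genes. The 4 called probe sets of Gorai.006G260300.1 (LOC107940910) had the 4 smallest adjusted p of the comparison and may share their target RNA, so they are not independent. The probe set with the smallest had 4424, 3524 and 3741 at 24 h and 944, 736 and 859.6 at 48 h in CBW-damaged leaves. In undamaged leaves it had 1218, 1432 and 893 at 24 h and 2572, 1810 and 2646 at 48 h. The days did not overlap in either kind of leaf and moved in opposite directions: damaged leaves lay above undamaged ones at 24 h and below them at 48 h. The transcript fell 4.6-fold with CBW (log2 -2.20, SE 0.17, adjusted p = 9.5e-07) and rose 1.99-fold without (log2 0.99, adjusted p = 0.0131).

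The other 3 probe sets of the gene fell by 2.79, 2.05 and 2.03 on the log2 scale (adjusted p = 8.95e-06 for each). Their CBW means at 6 h and 12 h were 285 and 204, 3541 and 2864, and 3711 and 2971, so the low level was found at 48 h and at none of the 3 earlier times. A second ERF gene, Gorai.011G193600.1, stood at 2009, 2119 and 1818 at 24 h and at 699, 691 and 694 at 48 h. It was 2.85-fold lower (log2 -1.51, SE 0.20, adjusted p = 0.0009), and the 48 h arrays lay just under the undamaged ones of 737, 914 and 699.6. Its other probe set (LOC107896651) had a log2 difference of -1.04 that missed the threshold (adjusted p = 0.0814). The ERF list as a whole had 5 of 64 probe sets called lower and 1 higher, beside 0.874% and 0.831% of all tested, with a median of 0.01. All 5 lower calls belonged to these 2 genes.

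Some ET signaling genes fell as well. Of 15 probe sets of 11 gene models, 5 were called lower and none higher, beside 0.874% and 0.831% of all tested, and the median was -0.37. In undamaged leaves 4 were called higher and none lower, beside 0.199% and 0.171% of all tested. The difference between both steps was called for 5, all lower in damaged leaves, beside 0.362% of all tested. Gorai.008G143100.1 had 485, 373 and 458 at 24 h and 155, 206.8 and 189 at 48 h. It fell 2.4-fold (log2 -1.26, SE 0.15, adjusted p = 0.000342). Undamaged leaves went the other way, from 101, 118 and 94.4 to 317, 243 and 335 (log2 1.51, adjusted p = 0.000111). As in the first ERF gene, damaged leaves were above undamaged ones at 24 h and below them at 48 h, with no overlap on either day.

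Gorai.005G047900.1 likewise moved from 1682, 1729 and 1807 to 672, 867 and 763 with CBW, while undamaged leaves had 288, 502 and 312 at 24 h and 1042, 707 and 1071 at 48 h. Both steps were called, at -1.19 (adjusted p = 0.0129) and 1.38 (adjusted p = 0.0131). Gorai.009G017100.1 fell on both of its called probe sets, by 1.58 and 1.24 on the log2 scale, and remained above undamaged leaves at 48 h. The remaining call, Gorai.009G058000.1, was dim and lost its direction with the floor on low intensities. Its log2 difference was -1.03 with CBW and -0.98 (adjusted p = 0.0851) without, and the difference between both steps was -0.05 (adjusted p = 0.968). ET biosynthesis, by contrast, had none of 14 probe sets called and a median of 0.003, although the difference between both lists was not tested.

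**Figure D3:**
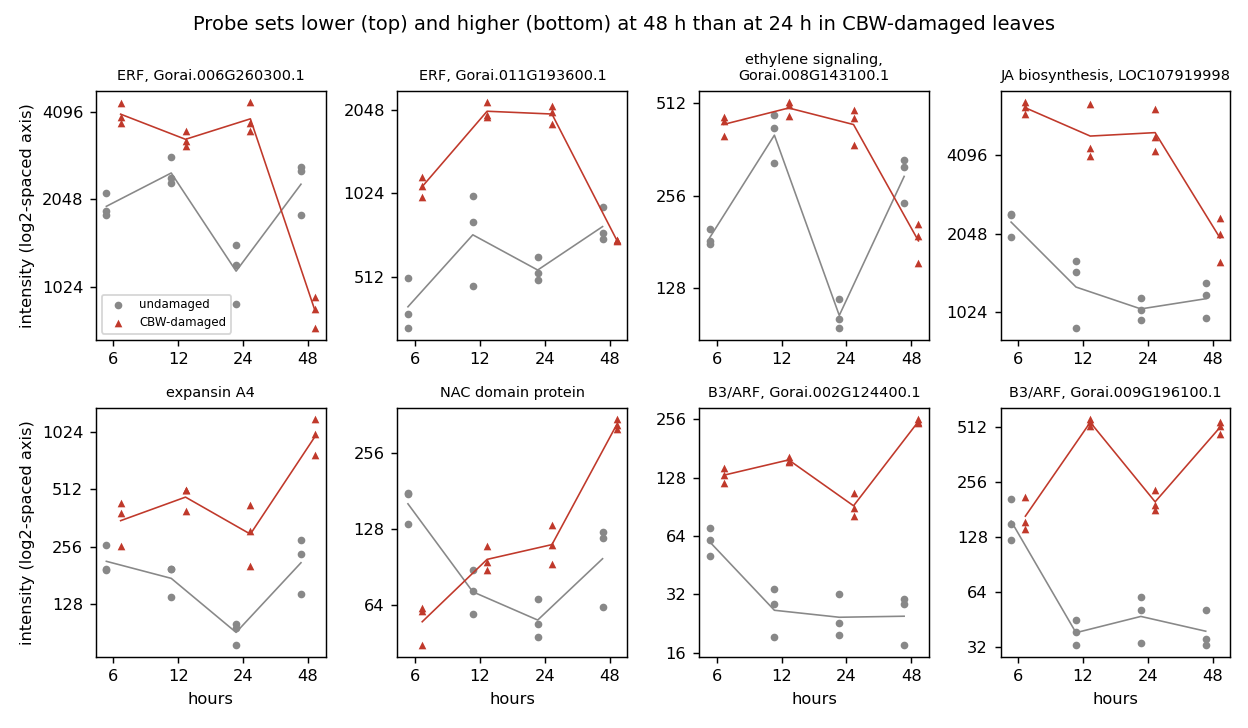
Intensity (log2-spaced axis) at 6, 12, 24 and 48 h for 4 probe sets called lower (top row) and 4 called higher (bottom row) at 48 h than at 24 h in CBW-damaged leaves; points are single arrays (3 per group), lines join geometric means, grey circles are undamaged and red triangles CBW-damaged leaves. The top left panel shows the ERF gene Gorai.006G260300.1, where the order of damaged and undamaged leaves turned between 24 h and 48 h.

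In the JA pathway, 3 of 37 biosynthesis probe sets were called lower and none higher, beside 0.874% and 0.831% of all tested, and the median was -0.03. LOC107919998 (Gorai.013G124500.1) had 6124, 4797 and 4239 at 24 h and 1596, 2360 and 2041 at 48 h and fell 2.53-fold (log2 -1.34, SE 0.22, adjusted p = 0.00572). It remained above the undamaged arrays of 48 h, which had 1194, 971 and 1330. A pair of probe sets of Gorai.009G071200.1 fell by 0.81 and 0.80. In undamaged leaves the former had a log2 difference of -0.59 (adjusted p = 0.137), with no overlap between the days, and the latter one of 0.04, and neither difference between steps was called (adjusted p = 0.749 and 0.173). Another probe set of Gorai.009G071200.1 had -0.91, which missed the threshold (limma adjusted p = 0.0616). No JA signaling probe set of 22 was called. WRKY factors, which regulate many defense genes, had 2 of 49 called lower, beside 0.874% of all tested: Gorai.011G086300.1 moved from 943, 764 and 792 to 262, 343 and 335 and Gorai.001G021500.1 fell by 1.48.

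Salicylic acid (SA) biosynthesis, the route to the hormone best known from defense against pathogens, had the second lowest median of all lists, -1.66, from 3 probe sets that the study also placed in the phenylpropanoid list. None was called. Gorai.002G248000.1, named here after its values were seen, had 3919, 949 and 1061 at 24 h and 509.6, 182 and 336 at 48 h on its brighter probe set (log2 -2.33, SE 0.85, adjusted p = 0.144), and undamaged leaves had 663, 468 and 2680.3 and then 2874, 1891 and 1926. The days did not overlap in CBW-damaged leaves on any of the 3 probe sets. As in the flavonoid list, replicate 1 of CBW 24 h was above the other pair of its group. The 6 SA signaling probe sets had none called and a median of 0.24. Other small lists with outlying medians included RAV (4 probe sets, -0.63), Trihelix (6 probe sets, 0.61) and YABBY (1 probe set, 0.70), with none called. LSD (3 probe sets, 0.94) had 2 called higher, both of the same gene, beside 0.831% of all tested.

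A further 5 down-regulated probe sets stood in the named set. Gorai.004G236100.1, a putative bHLH transcription factor, had 1284, 885 and 900.1 at 24 h and 596, 366 and 544 at 48 h (log2 -1.04, adjusted p = 0.0152). LOC107930621 of the gibberellin (GA) signaling list and LOC107938811 fell by 0.69 and 0.66. The Dof factor Gorai.010G159300.1 (-1.03) and Gorai.007G287500.1 (-0.79), listed both as a G2-like factor and under cytokinin signaling, were dim and lost their direction with the floor on low intensities. The 2 largest decreases of probe sets with neither a name nor a gene model were -2.23 and -2.14.

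Among the named increases, several genes encode proteins known from the cell wall. Names were at hand for 26 of the 117 up-regulated but only 5 of the 123 down-regulated probe sets. All 1028 entries taken from the study that had values at 48 h belonged to probe sets above undamaged leaves at that time. The named increases are therefore not a sample of all. Gorai.005G049400.1, a proline-rich protein of the wall, had 193, 118 and 237 at 24 h and 836, 1416 and 1280 at 48 h. It rose 6.54-fold (log2 2.71, SE 0.33, adjusted p = 0.00124). Undamaged leaves had values between 13.1 and 46.8, and the difference between both steps was not called. Another proline-rich protein gene, Gorai.005G049700.1, stood at 549, 647 and 900.1 and then 2786, 4574 and 3896 (log2 2.43, adjusted p = 0.0292).

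Dirigent-like proteins guide the coupling of phenoxy radicals into lignans. Gorai.009G446800.1 of this kind rose from 269.8, 222 and 244 to 929, 1595 and 1266 (log2 2.34, SE 0.38, adjusted p = 0.00773). Undamaged leaves had 20.4, 11.6 and 19.2 at 48 h, and the difference between both steps was not called. Expansin A4, which loosens wall polymers, was called on both of its probe sets. The firmer of them had 424, 202 and 308 at 24 h and 776, 1189 and 992 at 48 h (log2 1.70, adjusted p = 0.00572), and the other rose by 1.63. In undamaged leaves the log2 difference was 1.21 (adjusted p = 0.0606), and the difference between both steps, 0.49, was not called (adjusted p = 0.602).

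Beta galactosidase 1 (Gorai.011G065300.1), an enzyme that trims wall galactans, rose from 594, 525 and 377 to 1100, 2473 and 1771 (log2 1.79). Myo-inositol oxygenase 1 (Gorai.011G069500.1), which opens a route to the uronic acids of wall polymers, rose by 1.61. A receptor-like protein kinase-related gene (Gorai.011G065500.1) moved from 469, 159 and 313 to 962, 1540 and 1284 (log2 2.11, adjusted p = 0.0107). A word search for cell wall enzymes in the same names, added after the data were seen, found 13 probe sets, of which 2 were called, both of expansin A4, with a median of 0.88. Of all 929 tested probe sets with a held name, 25 were called higher and 1 lower, with a median of 0.17. Over all probe sets tested, 0.831% were called higher and 0.874% lower, with a median of 0.06. Among probe sets with values at 48 h, names were held only for those above undamaged leaves, so these counts and medians favour increases. The same search found 8 protease inhibitors and chitinases, 12 peroxidases and laccases, and 21 glutathione transferases and other conjugating enzymes, with none called and medians of 0.15, 0.58 and 0.01.

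Transcription factors were among the increases too. A NAC domain protein (Gorai.004G186700.1) had 93.1, 110.4 and 132 at 24 h and 348, 331 and 318 at 48 h. The level rose 3-fold (log2 1.58, SE 0.23, adjusted p = 0.00188). MYB-like 102 (Gorai.009G174500.1) rose from 100.4, 71.3 and 96.6 to 252, 385 and 287 (log2 1.78). Its CBW mean at 12 h, 663, was higher still. Each was the only called member of its family, of 28 NAC and 35 MYB probe sets, beside 0.831% of all tested called higher. Single calls do not describe these families.

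The auxin response factors (ARFs), B3-domain proteins that mediate auxin signaling, gave 2 calls of 12, both higher, from different genes, beside 0.831% of all tested. Gorai.002G124400.1 had 88.8, 80.8 and 107 at 24 h and 244, 249 and 256 at 48 h (log2 1.44, SE 0.22, adjusted p = 0.00327). Gorai.009G196100.1 had 190.4, 232 and 179 and 545, 468 and 518 (log2 1.35, SE 0.22, adjusted p = 0.00607). Undamaged leaves had at most 60.5 for either probe set on both days. These were the only calls of the 49 auxin signaling probe sets.

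Some increases brought damaged leaves closer to the undamaged level. LOC107904848 showed the largest rise, from 83.5, 59.6 and 198 at 24 h to 1066, 1411 and 1261 at 48 h (log2 3.64, SE 0.64, adjusted p = 0.00773). Undamaged leaves had 5901, 4002 and 6495 and 3275, 4814 and 3852 on these days, above every damaged array. The LSD zinc finger gene Gorai.008G227400.1 was called on both of its probe sets (0.94 and 0.96). The former had 647, 876 and 831 and then 1369, 1625 and 1487, and undamaged leaves had 2293, 2661 and 2451 at 48 h. Gorai.008G068100.1, a GRAS factor of GA signaling, rose by 1.25 to 497, 567 and 496, above the undamaged arrays of 48 h (448, 359 and 421).

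In the remaining hormone lists, 1 of 34 cytokinin signaling probe sets, Gorai.007G291700.1 (0.97), was called higher. So was 1 of 30 brassinosteroid signaling probe sets, Gorai.005G113100.1 (0.70), beside 0.831% of all tested. A B3 factor (Gorai.008G071300.1) rose by 0.67. PR protein class 10 (Gorai.012G129000.1), a pathogenesis-related protein, moved from 792, 560.1 and 538 to 1198, 1200 and 1254 (log2 0.97, adjusted p = 0.0211). HD-ZIP factors had 1 of 16 called, higher at 48 h, beside 0.831% of all tested. Their median was 0.36 in damaged and -0.30 in undamaged leaves. The call was a probe set of Gorai.009G049100.1 (0.67, adjusted p = 0.0231). Another probe set of this gene had -0.25 (adjusted p = 0.514), with overlap between the days. The difference between both steps was called for 4 of the 16, including both probe sets of Gorai.008G233200.1. All 4 were higher in damaged leaves, against 0.384% of all probe sets. Gorai.005G206200.1, an uncharacterized protein, rose by 1.55, and 2 probe sets with neither a name nor a gene model rose by 1.97 and 1.87.

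**Figure D4:**
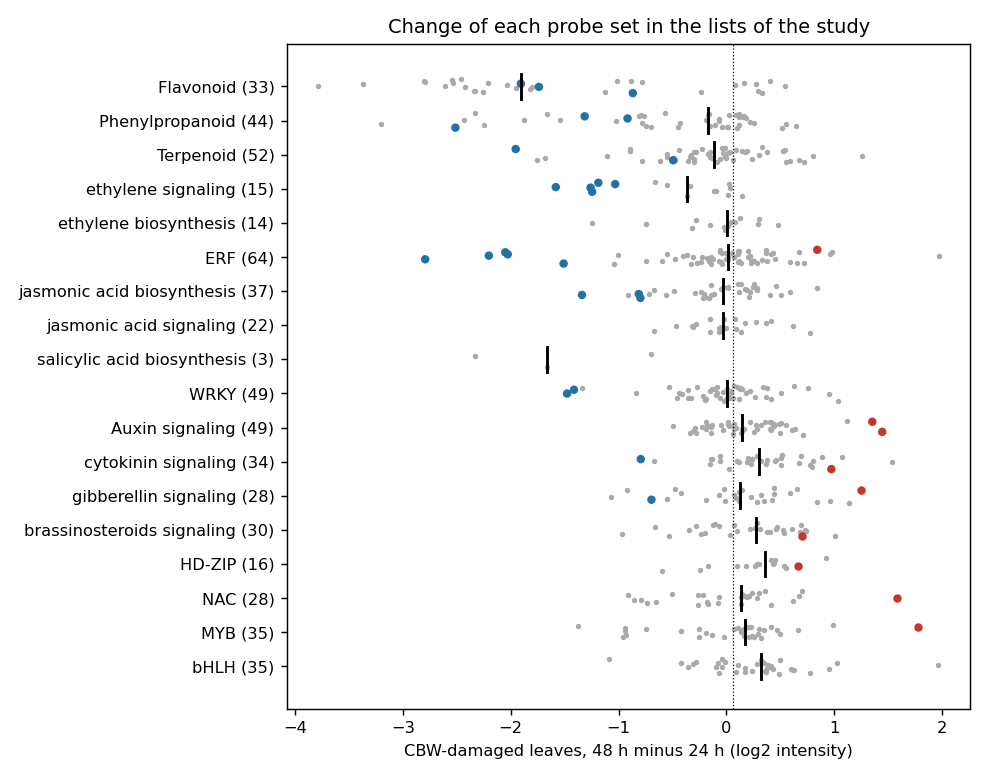
Log2 difference between 48 h and 24 h in CBW-damaged leaves for each probe set of 18 of the 68 lists of the study with a probe set tested (number in brackets); blue and red points were called lower and higher, grey points were not called, thick bars mark list medians and the dotted line the median of all probe sets (0.06). The flavonoid median lies at -1.91, that of salicylic acid biosynthesis at -1.66 and that of ethylene signaling at -0.37, while the other 15 medians lie between -0.17 and 0.36.

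Over all lists of the study, 15 of 940 probe sets were called higher and 27 lower, beside 0.831% and 0.874% of all 14071 tested. The hormone lists held 5 and 10 of these among 280, the transcription factor lists 10 and 9 among 490, and the stress-related list 3 and 5 among 149. A called member was found in 21 of the 68 lists with a probe set tested. All these lists were drawn by the study from probe sets that responded on these arrays. Outside the test lay 499 probe sets with values at 24 h only and 331 with values at 48 h only, which were dim (median intensity 56.3 and 64.6, against 397 and 408 for those with values at both).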

How the data were processed

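RNA of pooled whole leaves was hybridised to 24 Affymetrix cotton GeneChips. The deposited values are MAS5 signal intensities on a linear scale, named so in the submitters' processing notes; the scaling, and why the authors gave some probe sets no values at single times, are not stated in the sources at hand. The log2 of each intensity was used, without pseudocount or filter. limma 3.58.1 in R 4.3.3 fitted the 8 group means over all 24 arrays with 1 spread per probe set (8 to 16 residual degrees of freedom) and Benjamini-Hochberg adjustment within each comparison, and the fit was tested on simulated data. The number of arrays limits the precision: an exact permutation of 3 against 3 arrays cannot go under 0.1, two-sided. Alternatives were quantile normalization, median centring, a floor and a filter on low intensities, fewer arrays, a replicate block, an intensity trend and leaving out arrays.

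Named probe sets were, per direction, the 12 largest called differences with a name and no overlap between days, up to 5 called members of each list, the 10 largest called differences between both steps, and 2 unnamed ones per direction. Names came from the platform annotation (535 locus symbols among those tested, all found in the RefSeq table) and from rows held of a table of the study, of which 1028 had values at 48 h. The 17 lists by words matched no platform symbol. In the held names they found 104 probe sets in 13 lists: 3 were called higher (2 of 13 for the cell wall and 1 of 2 dirigent proteins), none lower, and none of 89 in the other 11, which include 8 seed and fibre probe sets. Held names favour increases, with 25 of 929 called higher and 1 lower. Members and lists were chosen with earlier results of these data known. Promoter sequences were not used here.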

Additional observations from a re-analysis of the deposited data

Results flagged for a closer look

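The change from 24 h to 48 h differed between CBW-damaged and undamaged leaves, by the interaction test of limma, for 105 probe sets (54 with a higher and 51 with a lower step in damaged leaves), among them 33 of the named ones. The count moved between 27, without control 48 h replicate 1, and 187, without control 48 h replicate 2. All values below are the step in damaged leaves minus the step in undamaged leaves, in log2.

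The ERF gene Gorai.006G260300.1 had the largest negative values, -4.33, -3.25, -3.20 and -3.18 on its 4 probe sets. The second ERF gene (Gorai.011G193600.1) had -2.13 and -2.03. In ET signaling, Gorai.008G143100.1 had -2.77, Gorai.005G047900.1 -2.56 and Gorai.009G017100.1 -1.53. Another probe set of Gorai.009G017100.1 had -1.77, which was not called (limma adjusted p = 0.0679). For the first ERF gene and the first 2 ET signaling genes, both steps were called and ran in opposite directions.

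The flavonoid gene Gorai.010G008900.1 had -2.47, -2.27 and -1.63 on its 3 probe sets, and the phenylpropanoid gene Gorai.009G192400.1 had -1.59 and -1.50. The WRKY factors gave -2.37 (Gorai.001G021500.1) and -1.85 (Gorai.011G086300.1), the JA biosynthesis gene LOC107919998 -1.47, the bHLH gene -1.45, the Dof gene -2.11 and 1 probe set without a name or gene model -2.33. In 2 further genes neither step alone passed the threshold. LOC107887176 had -2.41, with a CBW mean of 62.6 at 24 h and 27.7 at 48 h and undamaged means of 719.7 and 1722. Threonine aldolase 1 (Gorai.013G187300.1), which cleaves threonine to glycine, had -1.72, with a CBW mean of 5538 at 24 h and 3164 at 48 h and undamaged means of 171 and 322.

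Positive values were found for LOC107904848 with 4.08 and a beta-galactosidase (Gorai.001G011600.1) with 3.45. The latter had 185, 319 and 169 at 24 h and 593, 1366 and 989 at 48 h in damaged leaves, and its own step missed the threshold (log2 2.11, limma adjusted p = 0.0581). LOC107943848 had 2.04, the uncharacterized proteins Gorai.009G209300.1 and Gorai.005G206200.1 had 1.71 and 1.51, and the B3/ARF factors had 1.62 (Gorai.009G196100.1) and 1.43 (Gorai.002G124400.1). The cytokinin signaling gene Gorai.007G291700.1 had 1.52, the LSD gene 1.41 and 1.24, and the HD-ZIP gene Gorai.009G049100.1 1.21. Another probe set of the HD-ZIP gene had 0.72, which was not called (limma adjusted p = 0.232).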

How the results depend on the processing

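The count of called probe sets in CBW-damaged leaves moved with the arrays in the fit. It was 240 with all arrays, 1827 with only the 6 CBW arrays and 718 with only the 12 arrays of 24 h and 48 h, a fit added after seeing the data. The 6 arrays gave 1102 higher and 725 lower calls and 50 of at least 4-fold, and the 12 arrays gave 430, 288 and 37. The 12-array fit called 3 probe sets in undamaged leaves, against 52, and 255 differences between both steps, against 105. Raising low intensities to the 20th percentile gave 540 calls in damaged leaves (358 higher), 196 in undamaged leaves and 210 differences between steps. Quantile normalization gave 382 calls, 288 of them lower, and shifted the median of all probe sets from 0.06 to -0.03. Leaving out 1 array at a time gave 29 (without CBW 48 h replicate 2) to 187 calls (15 to 71 higher, 14 to 116 lower, 3 to 15 of at least 4-fold), 4 to 142 in undamaged leaves and 27 to 187 differences between steps. The causes were not tested. Median centring, the filter on low values and the intensity trend left every count they were run on within 1.5 times.

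With the replicate number as a block, 215 probe sets were called in damaged leaves, 45 in undamaged leaves and 117 for the difference. The numbers were not taken to pair the arrays: deviations of same-numbered arrays correlated at 0.11, 0.15 and -0.05 between CBW 24 h and 48 h, at 0.23, 0.49 and 0.09 between CBW and undamaged leaves of 24 h, and at 0.06, -0.61 and -0.50 between undamaged leaves of 24 h and 48 h, and in none of the 6 pairs of groups were all 3 over 0.1.

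Of 54 named probe sets called in damaged leaves, 13 passed under every alternative run: the 4 of the ERF gene Gorai.006G260300.1 and 1 each of Gorai.011G193600.1 (ERF), Gorai.008G143100.1 (ET signaling), LOC107919998 (JA biosynthesis), the proline-rich protein Gorai.005G049400.1, expansin A4, the NAC protein, both ARFs and Gorai.005G206200.1. The others missed the threshold under at least 1 alternative, most often when an array was left out. With the floor, 5 dim probe sets turned direction in damaged leaves: Gorai.007G287500.1 (0.0983), the Dof gene (0.0583), Gorai.009G058000.1 (0.116), LOC107887176 (0.116) and 1 of Gorai.009G192400.1 (0.116), and the difference between steps of the Dof gene became 0.0697.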
